A study of Mus musculus with 2 samples.

Results

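The genes described here encode 10 transcription factors of 3 families: GATA1 to GATA6, which bind DNA through zinc fingers, NKX2-5 and NKX2-6, which bind through a homeodomain, and HAND1 and HAND2, which are basic helix-loop-helix proteins. They were taken as a fixed list of gene symbols, and all 10 were found among the 21887 protein-coding genes of the mouse annotation. A peak belonged to a gene when it overlapped the gene's span or the 20000 bp on either side of it, here called the gene's window. Gata4, Gata5, Gata6, Nkx2-5, Hand1 and Hand2 were grouped as the 6 cardiac members. Gata1, Gata2 and Gata3, of the blood lineages, and Nkx2-6, of the early embryo, were grouped as the other 4 members. The grouping rests on textbook knowledge, since no RNA was measured.

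The series profiled the asymmetric dimethyl mark on a histone H3 arginine, H3R17me2a, by chromatin immunoprecipitation and sequencing (ChIP-seq) of wild-type mouse heart at 21 days after birth. Both samples form 1 group, and no other genotype, age or control was analysed here. The labels do not say whether they came from separate animals. A further field names cardiac fibroblasts, although the tissue is given as heart and frozen cardiac tissue was homogenised. The series describes the hearts as neonatal, and the titles carry the name carm1 beside a wild-type genotype. A peak list was deposited for each sample, and these are called list 1 and list 2 after the sample numbers.

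H3R17me2a is written by Carm1, an arginine methyltransferase that is recruited by transcription factors and acts as a coactivator. GATA4, GATA6, NKX2-5 and HAND2 act with T-box and MEF2 factors to switch on contractile genes in the forming heart, and GATA4 and NKX2-5 keep that role in the grown cardiomyocyte. GATA1 directs red cells and megakaryocytes, GATA2 blood stem and progenitor cells, and GATA3 T cells. NKX2-6 is known from the pharyngeal region of the mouse embryo.

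There were 21496 peaks in list 1 (median width 460 bp) and 38012 in list 2 (459 bp). The lists did not share a threshold: −log10 p reached down to 5.0 in list 1 and to 2.01 in list 2. In list 2, q exceeded 0.05 for 38.1% of the peaks. Total depth is unknown. Summit read numbers were recovered from the authors' fold and p, with medians of 26 in list 1 and 15 in list 2. In 42.1% of 20978 overlapping pairs of peaks both summits lay on the same base. Over all 20774 pairs with reads recovered in both lists, whatever the summit, the reads differed by a median of 1, where the counting error of independent samples would have a median SD of 7.42 reads. The difference was within 1 such SD in 92.2% of pairs and over 2 SD in 4.23%. Most overlapping peaks thus differed by less than the sampling noise. This says nothing of the 47.8% of list 2 peaks that overlap no list 1 peak. The samples were counted as 1 sample with 2 peak calls, and no value carries a replicate error or a test between groups. A list 1 peak that overlapped a list 2 peak by at least 1 bp is called shared, which held for 97.1% of list 1 peaks. Defining genes of cardiomyocytes had a shared peak in their window in 10 of 10 cases, against 57.7% of all protein-coding genes. The same held for 1 of 8 fibroblast, 1 of 8 endothelial, 3 of 8 erythroid and 2 of 8 immune marker genes, with Col3a1, Dcn, Cdh5 and Adgre1 among those without any list 1 peak. In chromatin from bulk tissue, fewer cells of a type and less mark per cell cannot be told apart.

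Promoters with and without a peak are shown first. RefSeq promoter windows (GRCm38.p6, whose coordinates are those of mm10) were found for 6 of the 10 genes, Gata1, Gata2, Gata3, Gata5, Nkx2-5 and Hand2, with 2 starts for Gata2. The 250 bases before the start are printed for a pair of cardiac genes whose start lies in a shared peak, for the blood-lineage gene Gata2, whose start also does, and for the cardiac gene Gata5, which has no peak there. Capitals mark the GATA words AGATAA or AGATAG and TGATAA or TGATAG on either strand, the NKX2 word TNAAGTG and TATAAA, none of which overlapped another.
Nkx2-5 (chr17:26841566-26841815, minus strand): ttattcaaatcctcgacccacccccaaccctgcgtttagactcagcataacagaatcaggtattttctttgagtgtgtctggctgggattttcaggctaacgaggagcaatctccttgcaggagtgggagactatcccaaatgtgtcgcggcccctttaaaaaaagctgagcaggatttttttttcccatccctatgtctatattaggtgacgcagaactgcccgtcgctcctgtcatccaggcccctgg
Hand2 (chr8:57320733-57320982, plus strand): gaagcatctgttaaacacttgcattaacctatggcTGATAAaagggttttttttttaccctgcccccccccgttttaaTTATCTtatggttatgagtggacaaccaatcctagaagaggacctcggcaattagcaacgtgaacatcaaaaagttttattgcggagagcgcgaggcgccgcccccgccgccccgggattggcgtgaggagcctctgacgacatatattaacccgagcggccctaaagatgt
Gata2 (chr6:88193641-88193890, plus strand): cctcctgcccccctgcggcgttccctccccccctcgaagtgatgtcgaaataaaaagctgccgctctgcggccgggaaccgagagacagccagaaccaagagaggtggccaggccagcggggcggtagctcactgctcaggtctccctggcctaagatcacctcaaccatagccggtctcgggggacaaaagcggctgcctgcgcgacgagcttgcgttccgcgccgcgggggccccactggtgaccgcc
Gata5 (chr2:180334680-180334929, minus strand): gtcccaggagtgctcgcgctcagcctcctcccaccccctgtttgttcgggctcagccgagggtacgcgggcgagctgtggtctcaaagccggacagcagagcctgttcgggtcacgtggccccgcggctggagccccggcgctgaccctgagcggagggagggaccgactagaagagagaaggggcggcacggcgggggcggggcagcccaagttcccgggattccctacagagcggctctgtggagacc
The only GATA words in the 7 member promoters were at Hand2. TGATAA began 215 bases before the start, and TTATCT, which is AGATAA read on the other strand, began 172 bases before it. A GATA word was present in 23.6% of the 21263 protein-coding promoters, an NKX2 word in 9.40% and TATAAA in 11.6%. An E-box, CANNTG, the class of site bound by helix-loop-helix proteins, was found at Hand2, Nkx2-5, Gata5 and Gata1, against 62.8% of all promoters. The Gata5 promoter was 70% G and C with 22 CG pairs, like that of Gata3 (70%, 19 pairs) and the upstream Gata2 promoter (67.2%, 22 pairs). Nkx2-5 and Hand2 had 49.2% each, with 8 and 15 CG pairs, and Gata1 54% with 2. Over all promoters the median was 55.6% and 10 pairs, and over those with a shared peak 62.4% and 19 pairs. A shared peak overlapped 4 of the 7 member promoter windows, taken with the 50 bases after the start, against 35.5% of all promoter windows. The promoters of Gata5, with many CG pairs, and of Gata1, with few, were both without a peak in either list.

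Peaks were unevenly spread over the 10 genes. A shared peak lay in the window of 7 of 10 members, against 57.7% of all protein-coding genes, over the span of 6 of 10, against 43.0%, and within 1000 bp of a gene end in 5 of 10, against 38.6%. A list 1 peak, shared or not, lay in the window of 7 of 10 members, against 58.2% of all genes, and a list 2 peak in 9 of 10, against 68.3%. These shares were near or moderately above the background. The 6 cardiac windows held 62 shared peaks, and the windows of the other 4 genes held 2. Nearly all of them came from Gata6 with 21, Gata4 with 20, Nkx2-5 with 11 and Hand2 with 9. Gata5, Gata2 and Gata3 had 1 shared peak each, and Hand1, Gata1 and Nkx2-6 had none. Gata5 and Hand1 thus fell among the blood-lineage and silent genes, and the groups overlapped. The median over the 10 members was 1 shared peak, as it was over all protein-coding genes, and the high counts came from 4 genes.

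**Figure D1:**
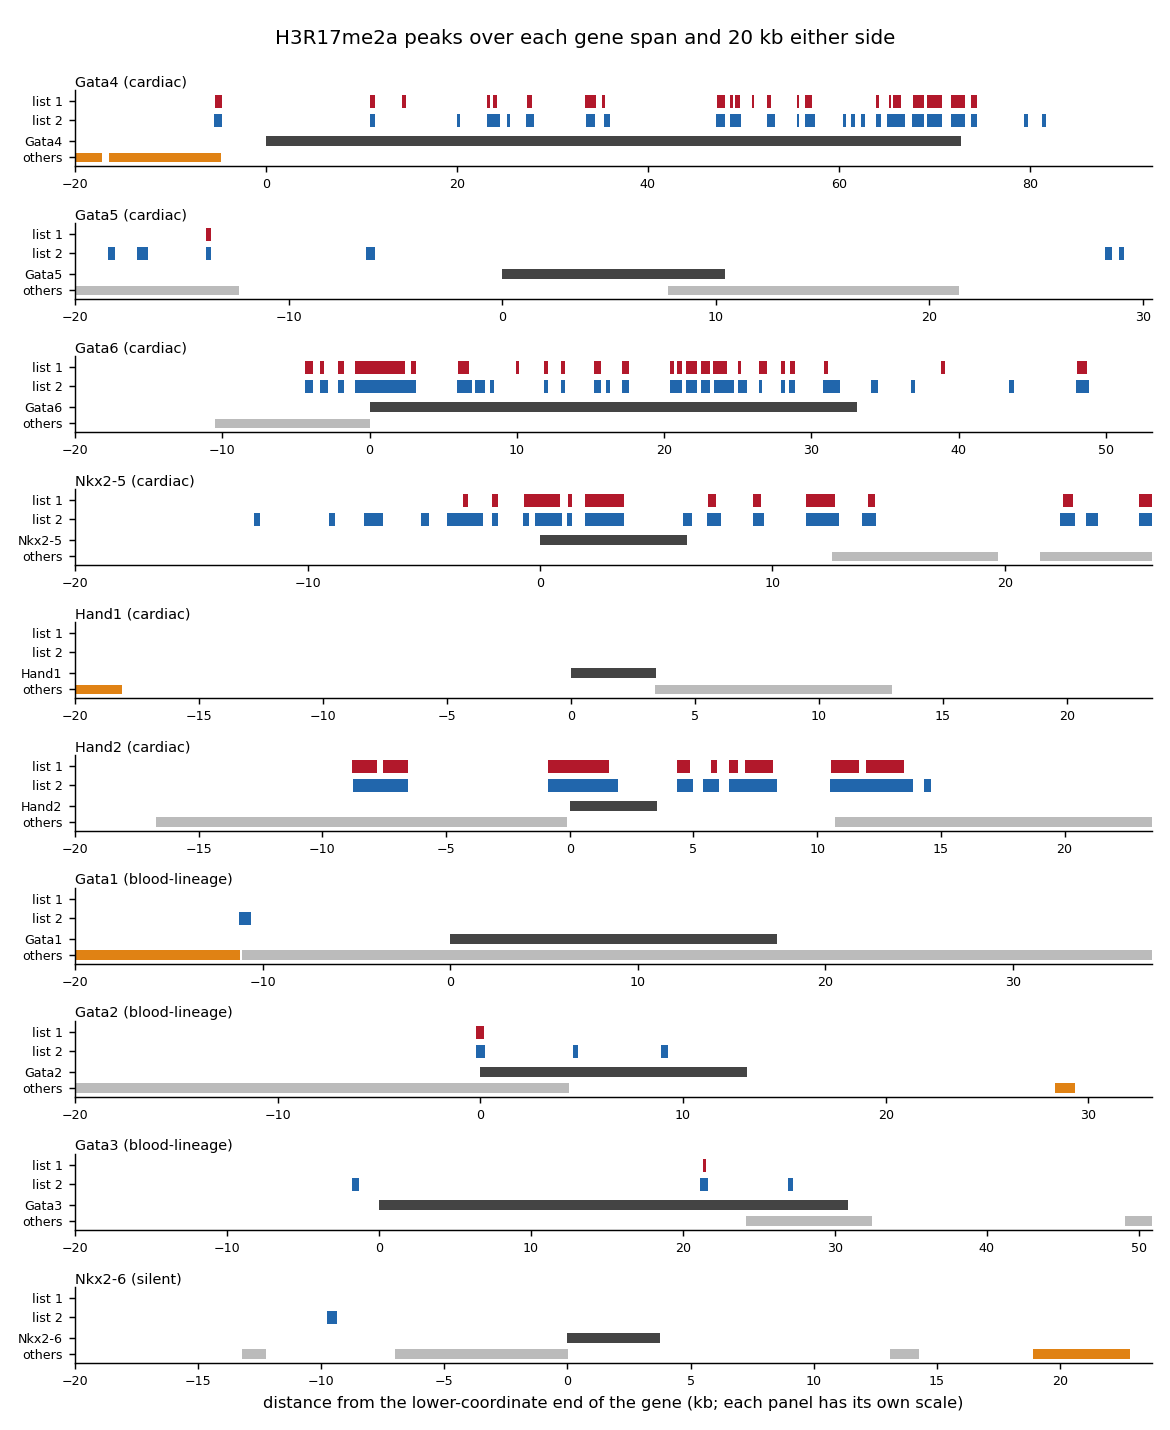
Peaks of list 1 (red) and list 2 (blue) over each gene (dark bar) and 20 kb on either side, with distance in kb from the lower-coordinate end of the gene on the horizontal axis. Orange bars are other protein-coding genes and grey bars other annotated genes. Gata4, Gata6, Nkx2-5 and Hand2 carry rows of peaks in both lists, with 9 to 23 in list 1, while the other 6 panels hold at most 1 list 1 peak each.

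Among the cardiac GATA genes, Gata4 and Gata6 carried many separate peaks within the gene. GATA4 is an activator of cardiac contractile and natriuretic genes. Gata4 (mm10 chromosome 14, 63198914 to 63271712) had 22 peaks in list 1 and 24 in list 2, of which 20 in each list overlapped the gene itself. The gene is 72799 bp long, and peaks covered 16.4% of it in list 1 and 22.8% in list 2. Of the 24 list 2 peaks 8 had a q above 0.05. Counting only peaks with a −log10 p of 5 or more, Gata4 had 10 shared peaks in place of 20. The peak with the most reads, 148 in list 1 and 136 in list 2, lay across the gene's upper end (63270647 to 63272169 in list 1, 1523 bp). Its fold enrichment was 3.82 and 5.67. The recovered background at that summit was 38.0 for list 1 and 14.0 for list 2, where list 2 values are on a scale on which 1 ChIP read counts as 0.618. The highest fold at Gata4, 11.7 in list 1 and 9.88 in list 2, lay further inward, at 63266734 to 63267833, with 47 and 55 reads, and ranked in the upper 3.25% of list 1 and 2.83% of list 2. A further inner peak, at 63232334 to 63233493, had folds of 9.11 and 6.90 from 20 and 21 reads. Between these lay a stretch of 11723 bp without a list 1 peak and 11157 bp without a list 2 peak. Of the 20 shared peaks 18 overlapped the gene, and 1 of the others, at 63193534 to 63194299, overlapped the neighbouring DNA repair gene Neil2.

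GATA6 is a close paralogue of GATA4, needed in heart, gut and lung. Gata6 (chromosome 18, 11052510 to 11085636) had 23 peaks in list 1 and 25 in list 2, with 18 over the gene in each list. They covered 29.3% of its 33127 bp in list 1 and 39.3% in list 2. Of the 25 list 2 peaks 13 had a q above 0.05. Counting only peaks with a −log10 p of 5 or more, Gata6 had 6 shared peaks in place of 21. Its lower end carried the widest peak of all member windows, 3409 bp in list 1 (11051532 to 11054940) and 4160 bp in list 2 (11051530 to 11055689). These were among the widest 0.354% and 0.142% of peaks in their lists, with 147 and 168 reads and folds of 7.05 and 6.55. The noncoding gene Gata6os overlaps that end, so the wide peak touches both genes and cannot be assigned to either. The remaining 22 list 1 peaks had 9 to 29 reads and were 206 to 965 bp wide. The longest stretch of the gene without a list 1 peak was 3208 bp, shorter than at Gata4 although both genes had similar numbers of peaks.

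Gata5, the third cardiac GATA gene, had 1 shared peak in its window and no called peak over the gene. GATA5 acts in the endocardium and outflow tract of the developing mouse heart. Neither list had a peak over Gata5 (chromosome 2, 180325088 to 180335503), and the nearest was a list 2 peak 5949 bp away. Its only shared peak (180311205 to 180311450, 246 bp, folds of 5.17 and 3.46, 30 and 32 reads) lay 13637 bp beyond its lower end, inside the noncoding gene Gm29943. List 2 added 5 weak peaks of 6 to 18 reads in the window, all with a q above 0.05. The noncoding gene Gata5os also overlaps Gata5.

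NKX2-5 is among the earliest markers of the cardiac lineage and partners GATA4 on DNA. Nkx2-5 (chromosome 17, 26838664 to 26844988) had 11 peaks in list 1, all shared, and 18 in list 2. Peaks covered 43.4% of its span in list 1 and 48.2% in list 2. Of the 18 list 2 peaks 7 had a q above 0.05. Counting only peaks with a −log10 p of 5 or more, Nkx2-5 had 7 shared peaks in place of 11. A peak of 1683 bp in list 1 and 1697 bp in list 2 lay across the start printed above, with its summit 124 bp and 130 bp after the start, 68 and 71 reads and folds of 4.06 and 3.74. That start lies inside the annotated span, and the last 2695 bp up to the upper end held no list 1 peak. List 2 had a peak of 379 bp across the upper end, which was not shared. A peak of 1569 bp in list 1 covered the lower end of the gene (26837955 to 26839523, fold 5.60, 27 reads). In list 2 that stretch held separate peaks of 248 and 1177 bp. The flanks held more peaks than the gene, 8 of 11 in list 1 and 14 of 18 in list 2. The strongest of them, at 26861174 to 26861580, lay 16185 bp beyond the upper end, on the side before the start, inside the noncoding gene Gm17382. It had folds of 9.17 in list 1 and 14.0 in list 2 from 54 and 63 reads, which placed it in the upper 8.16% and 0.863% of peaks. At 26852764 to 26853093 there were 66 reads in list 1 and 87 in list 2, with folds of 2.79 and 6.09. The recovered background there was 23.0 for list 1 and 8.0 for list 2. No other protein-coding gene reached into the window.

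The HAND genes differed from each other as sharply as the GATA genes. HAND2 is needed for the right ventricle, and HAND1 for the left ventricle and the placenta, in the mouse. Hand2 (chromosome 8, 57320983 to 57324517) is 3535 bp long and had 9 peaks in list 1, all shared, and 7 in list 2. Peaks covered 21.8% of its window in list 1 and 27.3% in list 2, the highest of the 10 genes in each list. Of the 7 list 2 peaks 1 had a q above 0.05. Counting only peaks with a −log10 p of 5 or more, Hand2 still had 9 shared peaks. The peak over its start measured 2498 bp in list 1 and 2836 bp in list 2, with 94 and 89 reads and the summit on the same base, 83 bp before the start. Its folds, 2.97 and 2.44, lay in the upper 87.1% and 90.1% of their lists, and the recovered background was 31.0 for list 1 and 22.0 for list 2. An end of the noncoding gene Hand2os1 lies 124 bp from Hand2, and the peak covers both. Beyond the upper end a further 6 list 1 peaks followed between 803 and 8425 bp from the gene, of which 57328086 to 57329207 had the most reads, 65 in list 1 and 67 in list 2, at folds of 6.60 and 6.11. The highest fold among them in list 1 was 6.84, at 57331533 to 57332660, with 18 reads. The outermost of them lay over the noncoding genes Gm34030 and Hdnr, where list 2 joined 2 list 1 peaks into 1 of 3337 bp. Inside Hand2os1 list 1 had peaks of 984 and 994 bp, which list 2 joined into 1 of 2227 bp. List 2 thus had fewer peaks but covered more bases than list 1.

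Hand1 (chromosome 11, 57828713 to 57832147) had no peak in its window in either list, although 68.3% of all protein-coding genes had a list 2 peak in theirs. The window also holds the end of the protein-coding gene Sap30l and the noncoding gene Gm32915. Hand1 was the only one of the 10 genes without any peak.

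**Figure D2:**
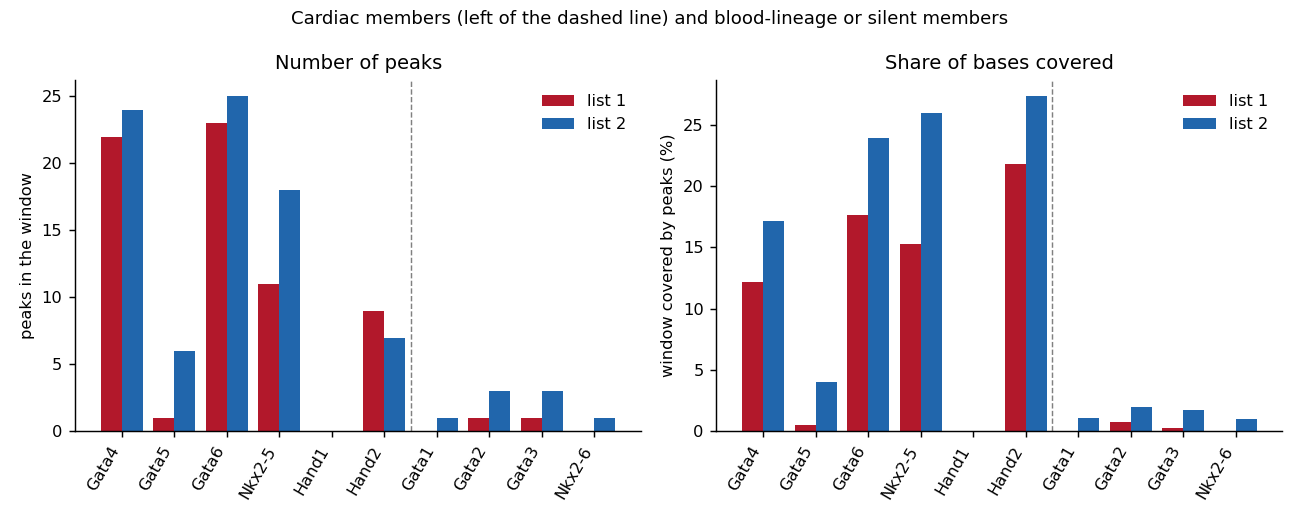
Number of peaks in each gene's window (left) and percent of the window's bases covered by peaks (right), for list 1 (red) and list 2 (blue). The 6 cardiac genes stand left of the dashed line, where Gata4, Gata6, Nkx2-5 and Hand2 have 12.2 to 21.8% of the window covered in list 1 and Gata5 and Hand1 at most 0.488%. The 4 genes on the right have at most 0.773%.

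The blood-lineage GATA genes had at most 1 shared peak, and it was small. At Gata2 (chromosome 6, 88193891 to 88207032) a peak of 411 bp in list 1 and 459 bp in list 2 lay across the upstream start, with 12 reads in each list and folds of 4.45 and 3.71. Its summit was 36 bp before the start in list 1 and 32 bp in list 2. The noncoding gene Gm38708 spans the same position. List 2 also had a peak of 237 bp over the second start, with 35 reads and a fold of 1.89, in the upper 99.1% of list 2, and a peak of 9 reads further within the gene. At Gata3 (chromosome 2, 9857078 to 9887953) the shared peak also lay at the tabled start, 206 bp in list 1 and 466 bp in list 2, with 9 reads in each and folds of 4.98 and 3.69. That start lies inside the annotated span, so the peak was not counted at a gene end. Neither of these shared peaks remained when both lists were held to a −log10 p of 5.

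Gata1 (chromosome X, 7959260 to 7976663) had no list 1 peak in its window. Its 1 list 2 peak (7948007 to 7948621, 17 reads) lay at the end of the neighbouring deacetylase gene Hdac6, 10638 bp from Gata1. Nkx2-6 (chromosome 14, 69171802 to 69175540) had no list 1 peak either. Its 1 list 2 peak (69162015 to 69162450) had 972 reads and a recovered background of 96.0, both the highest among the peaks of the 10 windows, at a fold of 6.21. It lay 9351 bp from the gene and touched no annotated gene. List 1 had no peak there, although reads at shared summits were otherwise close between the lists.

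Single peaks of the cardiac windows were of about the same fold as peaks elsewhere. The peaks of the cardiac windows had a median fold of 4.71 in list 1 and 3.29 in list 2, against 4.98 and 3.53 over all peaks of each list. The 2 list 1 peaks of the other 4 genes had a median fold of 4.71. Median summit reads in the cardiac windows were 17.5 in list 1 and 16.5 in list 2, against 26 and 15 over all peaks. Peaks of at least 1000 bp made up 18.2% of the 66 cardiac window peaks in list 1 and 22.5% of the 80 in list 2, against 12.9% and 14.4% of all peaks. None of the 2 list 1 and 8 list 2 peaks of the other 4 genes was that wide. Of the list 2 peaks, 34 of 80 in the cardiac windows and 4 of 8 in the others had a q above 0.05. Among the 65 overlapping pairs of peaks in the windows, 17 (26.2%) had their summits on the same base, against 42.1% of all 20978 pairs. In 36 the summits were within 10 bp, and the list 2 peak was at least as wide in 53. The shares of all pairs for these 2 counts were not computed.

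**Figure D3:**
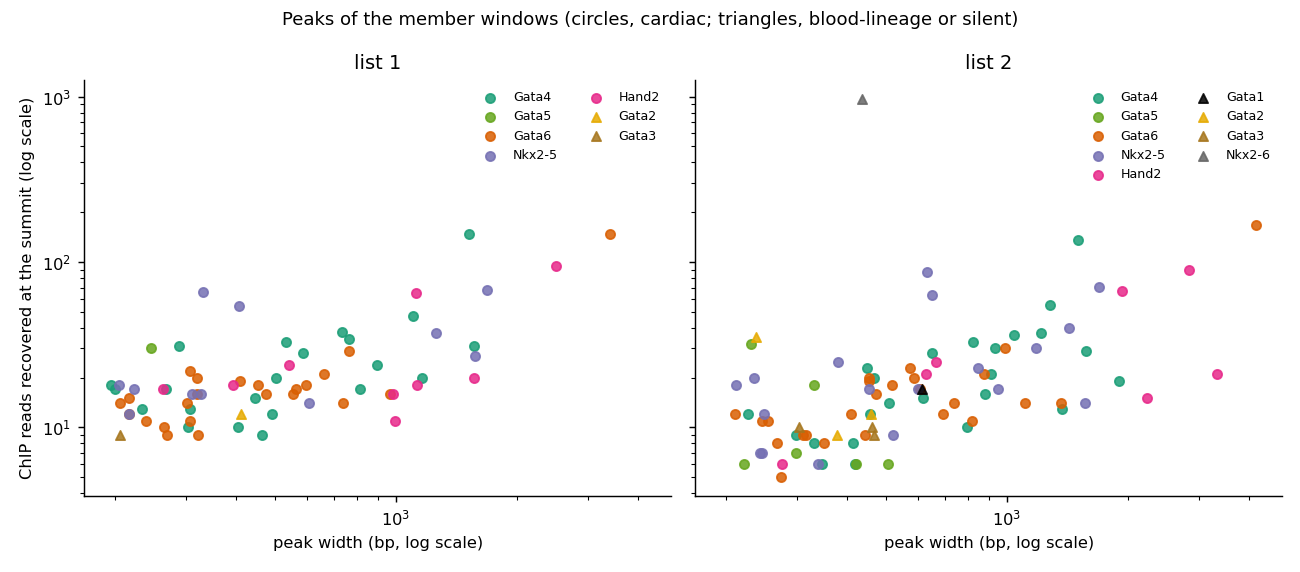
Reads recovered at the summit against peak width, both on log axes, for every peak of the gene windows in list 1 (left) and list 2 (right). Circles are cardiac genes and triangles blood-lineage or silent genes. The wide peaks across the ends or starts of Gata4, Gata6, Nkx2-5 and Hand2 reach 68 to 148 reads in list 1, the Gata2 and Gata3 peaks have 12 and 9, and the Nkx2-6 peak of list 2 stands alone at 972.

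Set on the distribution of all protein-coding genes, the covered share of the window placed Hand2, Gata6, Nkx2-5 and Gata4 in the upper 0.315%, 0.461%, 0.631% and 1.01% of genes in list 1. In list 2 they were in the upper 0.302%, 0.434%, 0.366% and 0.996%. Covered shares were 21.8%, 17.6%, 15.3% and 12.2% in list 1, against a median of 0.460% over all genes. Gata2 (0.773%), Gata5 (0.488%) and Gata3 (0.291%) were close to that median. In list 2 Gata5 reached 3.98% through its weak peaks, in the upper 16.8% of genes. Gata4 and Gata6, with the most shared peaks, were also the longest of the 10 genes at 72799 and 33127 bp, while Nkx2-5 and Hand2 were 6325 and 3535 bp long. The part of gene length in the peak counts was not tested. The marked genes also differed in where the covered bases lay. At Gata4 86.9% and at Gata6 75.3% of the covered bases of list 1 were inside the gene, against 38.8% at Nkx2-5 and 16.9% at Hand2, whose spans are short.

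**Figure D4:**
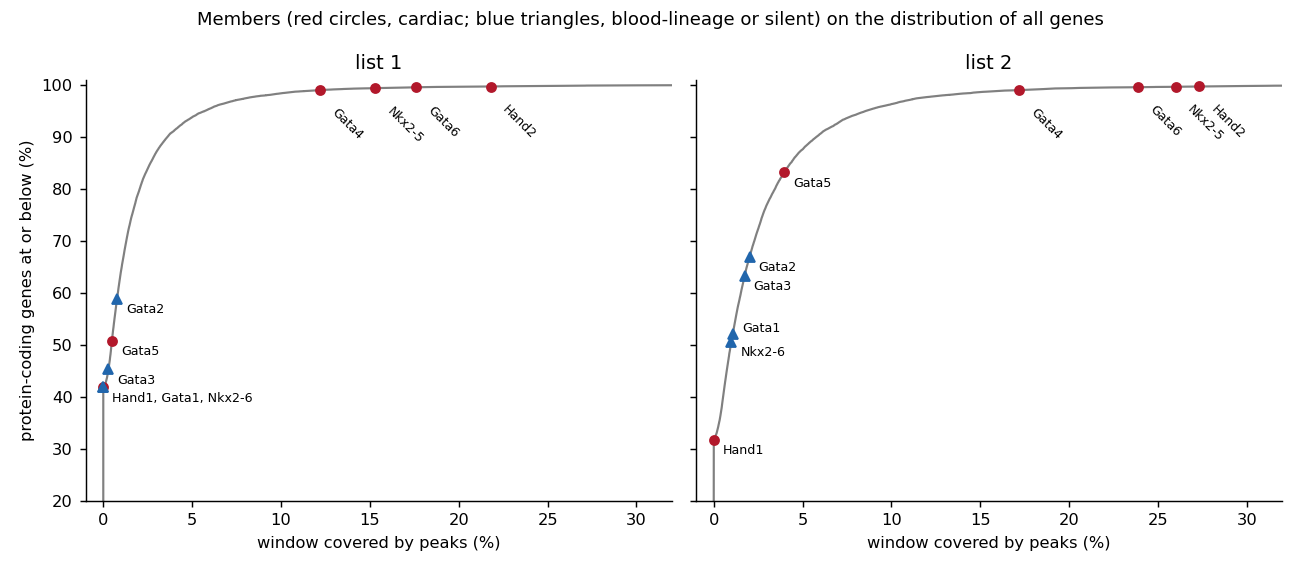
Cumulative share of protein-coding genes (vertical axis, from 20%) by the percent of their window covered by peaks (horizontal axis), for list 1 (left) and list 2 (right), with the 10 genes marked. Gata4, Gata6, Nkx2-5 and Hand2 lie on the flat upper end of both curves, and the other 6 genes lie at or near the steep lower part in list 1.

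Listed genes that work with these factors are set beside them by counts alone. Over all protein-coding genes, 57.7% had a shared peak in the window and 38.6% at a gene end. Of 20 partners of the cardiac factors, 18 had a shared peak in their window and 12 at a gene end, and the median window was covered to 1.19% in list 1. The most covered were Mef2d, a MADS-box factor (10 shared peaks), the SRF coactivator gene Myocd (18), the ventricular homeobox gene Irx4 (6) and the T-box gene Tbx20 (8). Of 20 known targets, 19 had a shared peak in the window and 15 at a gene end, with a median of 13 shared peaks and 13.2% covered. Myh6, the adult cardiac myosin heavy chain (61.4% covered), and Atp2a2, the calcium pump of the sarcoplasmic reticulum (52.4%), were the most covered. In covered share the windows of Hand2, Gata6, Nkx2-5 and Gata4 were nearer to the median target. Those of the cardiac members Gata5 (0.488%) and Hand1 (0%) were nearer to the median partner. The former are named for their high counts, so their place beside a list median is a description only. Among 127 other listed genes and members, those closest to Hand2 in covered share were Myl3 (22.2%), Actc1 (24.1%) and Ryr2 (18.0%), and those closest to Gata6 were Ryr2, Tnnc1 (16.6%) and Pln (16.4%), all of them contractile or calcium genes. Nkx2-5 was closest to Spi1 (15.9%), Pln and Tnnc1, and Gata4 to Scx (10.7%), Mta1 (10.6%) and Mef2d (10.4%). The targets and cardiomyocyte markers had median covered shares of 13.2% and 23.2% in list 1, and the other lists at most 1.59%. A well covered gene would thus mostly fall beside contractile or calcium genes of these lists, so their class is not a result about the members.

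Related genes of the 3 families differed between lists. The shares over all protein-coding genes were again 57.7% in the window and 38.6% at a gene end, and 43.0% over the gene. Of 12 other NK homeobox genes, 2 had a shared peak in the window, Nkx6-3 and Nkx1-2, and none had one over the gene or at its end. All of those peaks lay at or in other protein-coding genes. Of 13 other HAND-like helix-loop-helix genes, 5 had a shared peak in the window and 3 at a gene end, among them Scx, whose 4 shared peaks all lay at or in other coding genes, and the blood factor gene Tal1, with 2 over the gene. Among 9 other genes with a GATA-type zinc finger, all 9 had a shared peak in the window and 8 at a gene end, with a median of 1. Of 15 partners of the blood GATA factors, 11 (73.3%) had a shared peak in the window and 5 (33.3%) at a gene end. These were moderately above and slightly below the shares of all genes. Spi1, the myeloid factor gene PU.1, had 10, of which 1 lay away from other coding genes. At Lyl1, Ldb1 and Nfe2 the counts were 1 of 5, 1 of 3 and 0 of 2. By that same measure Gata4 had 19 of 20 shared peaks away from other coding genes, and Gata6, Nkx2-5 and Hand2 had all of theirs. No other protein-coding gene reached into the windows of Gata6, Nkx2-5 and Hand2. Their counts were thus set by the placing of genes and say nothing of the mark. Among the targets the counts were 4 of 16 at Myh6, 3 of 14 at Tnni3, 30 of 32 at Atp2a2 and 16 of 18 at Tnnt2, so that most Myh6 and Tnni3 peaks also lay at or in neighbouring coding genes.

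**Figure D5:**
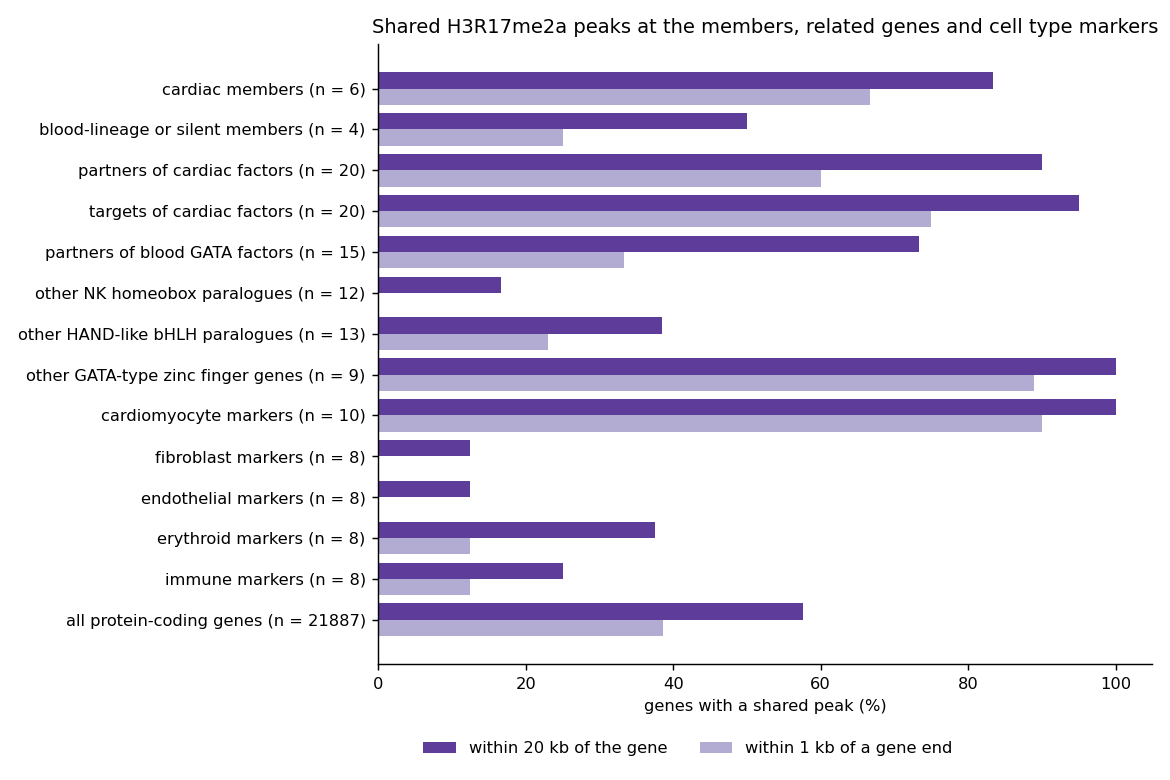
Percent of genes with a shared peak within 20 kb of the gene (dark) and within 1 kb of a gene end (light), for the cardiac members, the other members, related gene lists, cell type markers and all protein-coding genes. Cardiac members stand at 83.3% and 66.7%, the other members at 50% and 25%, and all genes at 57.7% and 38.6%. Of the 10 cardiomyocyte markers, 9 are also among the targets.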

How the data were processed

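H3R17me2a ChIP-seq peaks of wild-type mouse heart at 21 days were read from 1 deposited list per sample, 2 in all, in the narrow peak layout without a header. The submitters' processing notes list FastQC, Bowtie2 and mm10. The peak caller, control library and filters were not given in the sources used here. The deposited fold is a linear ratio at the summit, made by the authors. P-values and q-values were deposited as −log10, and the score that the authors deposited, 10 times the −log10 p, was not used. Fold, p and q were used only within a list.

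Reads at each summit were recovered as the whole number n for which fold = (k·n + 1) / (background + 1) and p is the Poisson tail above k·n, rounded down, at that background, with k found by scanning 0.5 to 1 on 120 peaks of each list. With k of 1 in list 1 and 0.618 in list 2 this matched p within 0.001 in 99.9% and 99.4% of peaks. It was tested on simulated peaks.

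Gene spans came from RefSeq for GRCm38.p6 (chromosomes 1 to 19, X and Y), 1-based, without strand. Strand and starts came from the RefSeq promoter table. Overlap meant at least 1 bp (Python 3.11.15, pandas 2.3.3). With 1 group and lists counted as 1 sample, values are descriptions without tests. All 10 members are named, and from each further list up to 4 genes by covered share in list 1, then alphabetically. The members and lists were chosen with earlier results of these data known.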

Additional observations from a re-analysis of the deposited data

How the results depend on the processing

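Gata4, Gata6, Nkx2-5 and Hand2 were picked for their high reported counts, so their rank in the same lists is a description, not support. In every planned setting of threshold, overlap, flank and list, their lowest count was above the highest among the other 6 members. It was 9 against 1 as reported, 3 against 1 in the upper 50% by fold and 7 against 6 in list 2 alone. Where peaks in each list needed a −log10 p of 5, the cardiac windows held 33 shared peaks and the other 4 members' 0. A −log10 q of 2 gave 39 and 0, and the upper 50% by fold gave 19 and 1. At the −log10 p of 5, 5 of 10 members and 11484 of 21887 protein-coding genes had a shared peak within 20000 bp. At the −log10 q of 2 these were 5 of 10 and 11721 of 21887. The members were thus not above all genes at either limit. In the upper 50% by fold 5 of 10 members and 7140 of 21887 protein-coding genes had one. At a gene end 2 members had one, against 5 as reported. The share of all genes at an end was not computed for that setting. The 4 blood-lineage or silent members had 1 shared peak when list 2 was cut to as many peaks as list 1. With a single list in place of shared peaks the 4 blood-lineage or silent members had 2 to 8 peaks. At a −log10 p of 5 Gata4 had 10 shared peaks, Gata6 6, Nkx2-5 7 and Hand2 9. The cause was not tested. No paired analysis was possible because the samples form 1 group. Total depth is unknown, and the shared peaks of Gata2 and Gata3 rest on 12 and 9 reads.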
